A study of Mus musculus with 18 samples.

Results

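The 9 genes described here act on the erythroid nucleus as it condenses and is expelled: the histone methyltransferase genes Kmt5a, Ehmt1 and Ehmt2, the deacetylase genes Hdac2, Hdac5 and Hdac6, the B-type lamin genes Lmnb1 and Lmnb2, and the exportin gene Xpo7. They were listed by name, with earlier results of these data known, and matched by their GENCODE M21 symbols among the 46167 genes of the series. All 9 passed the filter on low counts and were tested among 17500 genes. RNA was sequenced from progenitors enriched from E14.5 fetal livers of CD-1 mice with a kit and a CD71 antibody, and transduced with MSCV-PIG retroviruses that carry a short hairpin RNA (shRNA), puromycin resistance and GFP. The 18 libraries form 6 groups of 3: control shRNA (hairpins SCR-1 and SCR-2, and LUC-1), PCBP1 knockdown and PCBP2 knockdown (hairpins SH1, SH3 and SH4 of each), at Day 0 and at Day 2. Day 0 is the end of expansion with stem cell factor, erythropoietin and dexamethasone, and Day 2 follows 2 days in differentiation medium with more erythropoietin. All groups, controls included, went through transduction and the same media. Each library of a knockdown group carries its own hairpin. The labels do not say whether SCR-1 and SCR-2 are different hairpins or libraries of the same one. The labels do not tie libraries to separate animals or cultures, and every p-value reflects only how these libraries spread, which may be technical. Values from the same 3 controls of a day stand behind both knockdown comparisons of that day.

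The poly(C)-binding proteins PCBP1 and PCBP2 bind C-rich RNA and act in splicing, mRNA stability and translation. As erythroblasts mature, their chromatin condenses, histones are modified and partly exported from the nucleus, the lamina opens, and the nucleus is finally expelled. Kmt5a places a single methyl group on lysine 20 of histone H4, Ehmt1 (GLP) and Ehmt2 (G9a) form a pair that methylates lysine 9 of histone H3, and histone deacetylases remove the acetyl groups that keep chromatin open. Lamins B1 and B2 line the inner nuclear membrane, and Xpo7 is an exportin linked to histone export in erythroblasts.

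Ehmt2 was the gene whose splicing and level both changed with PCBP1 knockdown at Day 0, and the exon concerned is shown first. It is a cassette exon of 116 bases at chr17:34911363-34911478 (GRCm38, plus strand), inside Ehmt2 (chr17:34898469-34914052). It is exon 23 of 27 in Ehmt2-202. Capitals mark the exon and lower case the 100 bases of intron before it and 20 after it (chr17:34911263-34911498).
Ehmt2 cassette exon: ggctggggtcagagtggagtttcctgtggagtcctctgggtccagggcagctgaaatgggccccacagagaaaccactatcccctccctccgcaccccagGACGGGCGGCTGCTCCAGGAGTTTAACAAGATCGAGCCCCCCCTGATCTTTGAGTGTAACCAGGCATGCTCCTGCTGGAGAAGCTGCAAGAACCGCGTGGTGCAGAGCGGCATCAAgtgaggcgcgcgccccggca
The exon length leaves a remainder of 2 when divided by 3, so its loss shifts the reading frame. Without the exon, the Ehmt2-202 reading frame stops after 996 codons, against 1172 with it, in exon 25 (chr17:34912389-34912467). That stop lies 234 bases before the last exon junction.

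The 50 bases before this exon hold 23 C (46%) and 6 T. Among 27350 other acceptor windows of the same length in the GENCODE M21 transcripts, taken where an intron end lies inside another annotated exon and ends in AG, the median share of C was 26%, and 4.33% of windows held at least as many C. The letters CCCC start 40, 20 and 6 bases before the exon. Of the other windows 23.8% hold CCCC, and 4.0% have at least 3 starts. On the other strand, GGGG was not in this window and 10.5% of windows hold it. A run of C is a description of the sequence and not a binding site.

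The other members lie on GRCm38 at chr5:124439930-124462308 (Kmt5a, plus strand), chr2:24789928-24919614 (Ehmt1, minus), chr10:36974544-37001889 (Hdac2, plus), chr11:102194432-102230166 (Hdac5, minus), chrX:7930120-7947889 (Hdac6, minus), chr18:56707813-56753424 (Lmnb1, plus), chr10:80901203-80918245 (Lmnb2, minus) and chr14:70654246-70766628 (Xpo7, minus).

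Total estimated reads ran from 27033440 to 54096339 per library. Globin transcripts took 0.3 to 0.49% of them at Day 0 and 24.75 to 33.48% at Day 2, so non-globin genes were counted less deeply at Day 2. Normalised read counts (CPM) use library sizes scaled by TMM, a method that sets the typical gene to no change. Pcbp1 was between 186 and 206 CPM in controls at Day 0, and its hairpins SH1, SH3 and SH4 left 14.2, 59.4 and 24.3 CPM (16.6% of control on average; 14.1% at Day 2). Pcbp2 fell to 24.8% of control at Day 0 and 17.8% at Day 2 with its own hairpins, so each target was lowered in the libraries labelled for it. The Day 2 LUC-1 control stood apart from both other controls on the second principal component of all 18 libraries (74.03 against 4.94 and 13.89), and calls that end without it are given with and without it.

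Markers of the stages and of other cells moved with some groups, and their part in the results was not tested. The summed level of 5 progenitor markers was 563 to 579 CPM in the Day 0 controls, 506 to 543 CPM with PCBP1 knockdown and 542 to 610 CPM with PCBP2 knockdown. At Day 2 the 11 erythroid markers summed to 270181 to 392711 CPM in the controls, 216380 to 223350 CPM with PCBP1 knockdown and 216577 to 269385 CPM with PCBP2 knockdown, both below every control. The globin gene Hba-a1 led these sums, with means of 218113, 125924 and 137553 CPM in the same order. Of the 11 markers, edgeR called 7 lower with PCBP1 knockdown and 3 with PCBP2 knockdown, and 0 higher in either. Alas2 was level, with means of 12141, 12105 and 12391 CPM. The 7 macrophage markers summed to 25.9 to 29.5 CPM in the Day 0 controls and lower in both knockdowns (at most 23.5 CPM with PCBP1, 23.4 to 24.2 CPM with PCBP2). The 5 hepatocyte markers summed to 9.19 to 11.1 CPM in the Day 0 controls, 3.48 to 7.46 CPM with PCBP1 knockdown and 9.93 to 11.9 CPM with PCBP2 knockdown. The 5 lymphoid markers were higher at Day 2 with PCBP1 knockdown (13.2 to 20.2 against 7.91 to 9.70 CPM) and the 4 endothelial markers with PCBP2 knockdown (31.3 to 34.4 against 24.4 to 28.1 CPM), while the defining markers Cd3e, Cdh5 and Emcn stayed under 1 CPM. Sums of the 6 megakaryocyte, 8 granulocyte and 5 mast cell markers overlapped between knockdown and control at Day 2. Gata1, the erythroid transcription factor, was at 144 to 150 CPM in the Day 0 controls and 904 to 1061 CPM at Day 2. In bulk RNA, fewer cells of a type and less RNA per cell cannot be told apart.

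At Day 0, PCBP1 knockdown lowered Ehmt2 and no other of the 9 genes past the threshold (edgeR quasi-likelihood test, Benjamini-Hochberg adjusted p under 0.05 over all genes tested). Ehmt2 stood at 60.7 (SCR-1), 65.6 (SCR-2) and 57.0 CPM (LUC-1) in control. With the PCBP1 hairpins it stood at 25.3 (SH1), 37.8 (SH3) and 29.5 CPM (SH4), and values below keep this order of hairpins. All PCBP1 knockdown libraries lay below all controls. Ehmt2 fell by 0.99 on the log2 scale (SE 0.13), to 50.5% of control, with an adjusted p of 2.23e-04. It was the single called gene of 9, beside 0.891% of all genes tested. The call held in each of the 14 alternative settings and left-out libraries run for it, with changes of -1.16 to -0.63. The smallest, -0.63 with an adjusted p of 0.0218, came after removal of a trend with GC content.

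**Figure D1:**
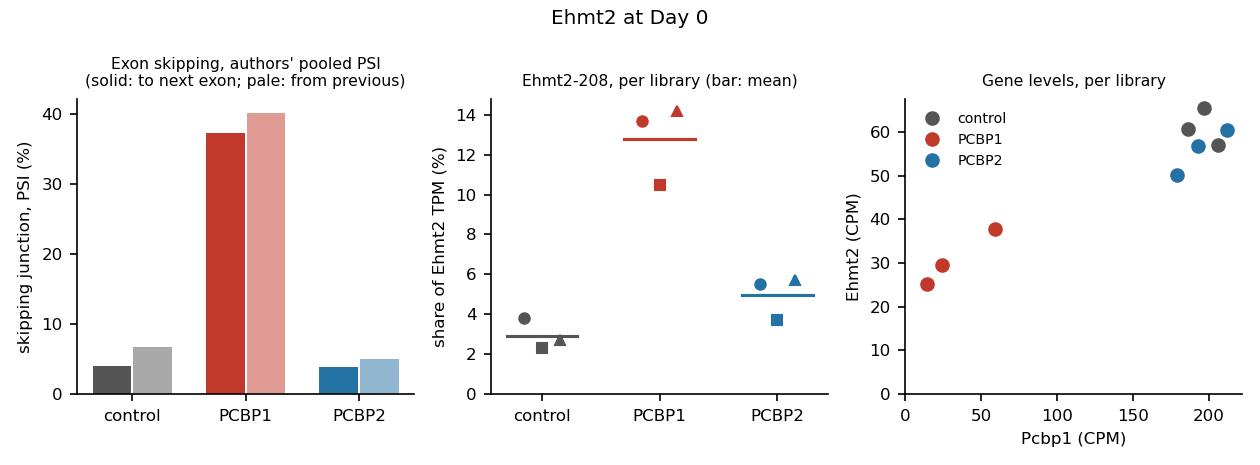
Ehmt2 at Day 0 by group. Left, the use of the junction that skips the 116-base exon (percent spliced in, the authors' pooled values) seen from the next and from the previous exon; middle, the share of Ehmt2 TPM given to the transcript Ehmt2-208 in each library with the group mean as a bar; right, Ehmt2 against Pcbp1 in CPM, 1 point per library. The PCBP1 knockdown pool stands apart on the left, with 37.3% and 40.2% for the same junction and no values per library. In the other panels its libraries stand apart, with Ehmt2 between 25.3 and 37.8 CPM.

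With the PCBP2 hairpins at Day 0, Ehmt2 was at 56.9, 50.2 and 60.4 CPM, a range that overlaps the controls. Its change was -0.13 (SE 0.13, 95% interval -0.38 to 0.12). Between the knockdowns, Ehmt2 was higher in PCBP2 than in PCBP1 knockdown by 0.85 (SE 0.13, adjusted p = 0.00217). This was the 1 member of 9 called there, beside 0.257% of all genes. In an edgeR fit of these groups alone with a block for hairpin number, the Ehmt2 change was 0.84 and not called (adjusted p = 0.119).

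The authors' deposited tables of local splicing variations (LSVs, the junctions that leave or enter 1 exon) gave the same exon. They hold the expected share of use of each junction (percent spliced in, PSI) in the pooled libraries of a condition, with no SD and no depth. In these tables the skipping junction chr17:34911055-34911579 was used at 4.0% in the Day 0 controls, 37.3% in PCBP1 knockdown and 3.9% in PCBP2 knockdown, among the junctions entering the next exon. Seen from the previous exon, its use was 6.7%, 40.2% and 5.0%. The junction out of the 116-base exon fell in use from 96.0% to 62.7% with PCBP1 knockdown, and the junction into it from 93.3% to 59.8%. The probability of a change of at least 20 percentage points was 0.998 and 0.997 in the authors' deposited table, with expected changes of 34.5 and 33.9 points. These were the 2 called LSVs (probability of at least 0.90) of the 220 LSVs of the 9 genes, beside 0.0772% of all LSVs in that table.

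Ehmt2-208, annotated as a target of nonsense-mediated decay, is a transcript that lacks the exon and differs elsewhere too. Salmon assigned it 60, 47 and 43 reads in the Day 0 controls, 106, 116 and 132 with PCBP1 hairpins and 93, 88 and 91 with PCBP2 hairpins. As a share of Ehmt2 TPM, Salmon's length-normalised level, this was 2.95% ± 0.744 (SD, n = 3), 12.8% ± 2.03 and 4.98% ± 1.14. The PCBP1 knockdown libraries, at 10.5% to 14.2%, lay above all others, and these shares are Salmon's estimates from reads mostly shared between transcripts. By estimated reads instead of TPM the shares were 1.49%, 7.27% and 2.57%. One further Ehmt2 LSV with a sizeable expected change was not called: the junction chr17:34905456-34905610 was used at 36.3% in control and 52.7% in PCBP1 knockdown (probability 0.245 in the authors' deposited table).

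At Day 2, Ehmt2 was low in all libraries. Controls held 6.40, 7.21 and 6.52 CPM and PCBP1 knockdown 4.06, 5.44 and 5.31 CPM, on 73 to 149 reads per library over the day. The groups did not overlap, but the change of -0.44 (SE 0.17) had an adjusted p of 0.0872, and after removal of the GC trend it was -0.04. With PCBP2 hairpins it was at 6.29, 5.58 and 7.48 CPM, overlapping the controls. The PCBP1 effect at Day 2 minus that at Day 0 was 0.54 (SE 0.21, adjusted p = 0.271), so a difference between the days was not shown. The skipping LSVs are not among the 3 LSVs of Ehmt2 in the Day 2 table of PCBP1 knockdown, so skipping at Day 2 was not analysed here.

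Ehmt1, the partner of Ehmt2, did not pass the test in any knockdown comparison. At Day 0 control libraries held 42.9, 44.1 and 42.6 CPM, against 42.1, 45.6 and 46.5 with PCBP1 hairpins and 47.4, 45.4 and 42.7 with PCBP2 hairpins. The change with PCBP1 knockdown was 0.05 (95% interval -0.16 to 0.26), and the groups overlapped. At Day 2 it was at 7.94 to 11.7 CPM over all libraries, with the groups overlapping.

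Kmt5a, the H4K20 monomethyltransferase gene, also passed in no knockdown comparison. At Day 0 it stood at 105, 105 and 115 CPM in control, 114, 119 and 128 in PCBP1 knockdown and 113, 99.6 and 120 in PCBP2 knockdown. The PCBP1 change was 0.15 (SE 0.10, adjusted p = 0.694). Salmon split its reads differently between groups: Kmt5a-210, a non-coding transcript, took 1.6%, 0.1% and 8.8% of Kmt5a TPM in the Day 0 controls and 30.6%, 32.7% and 28.5% in PCBP1 knockdown. The share in PCBP2 knockdown was 17.9%, 28.3% and 8.2%. The coding transcript Kmt5a-212 went the other way, at 29.6%, 33.0% and 23.8% in control and 6.0%, 4.4% and 9.5% in PCBP1 knockdown. The authors' junctions do not show this split: the junction chr5:124447004-124447214, which is specific to Kmt5a-210, had a PSI of 0.0% in both groups at Day 0 in the authors' deposited table. By estimated reads the share of Kmt5a-210 in PCBP1 knockdown was 12.8%. In PCBP1 knockdown at Day 0 the largest expected change among Kmt5a LSVs was at chr5:124446084-124447214, used at 40.9% and 30.5% (-6.8 points, probability 0.0104 in the authors' deposited table). In PCBP2 knockdown it was at chr5:124440015-124447214, used at 85.3% and 96.9% (6.9 points, probability 0.0149 in the authors' deposited table). Neither was called.

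**Figure D2:**
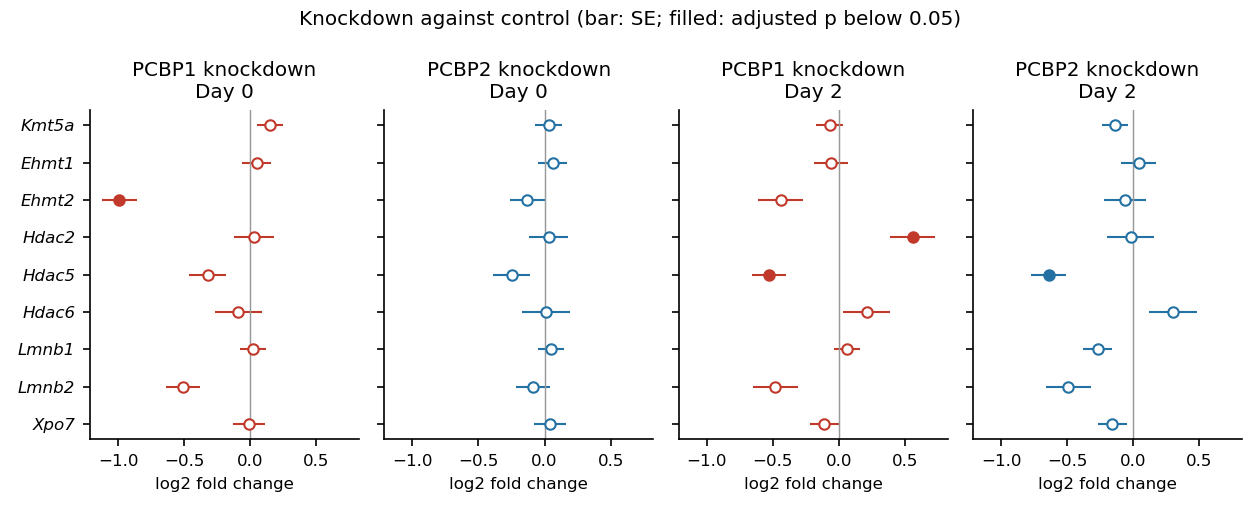
Log2 fold change of each of the 9 genes against control in the 4 knockdown comparisons, with a bar for the SE and a filled point where the adjusted p is below 0.05. Ehmt2 at Day 0 in PCBP1 knockdown (-0.99) is the largest change; Hdac5 is lower in both knockdowns at Day 2 (-0.53 and -0.64), and Hdac2 is called higher in PCBP1 knockdown at Day 2 (0.56).

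Lmnb2, one of the B-type lamin genes, was lower in PCBP1 knockdown at Day 0 without passing the test. Control libraries held 29.7, 32.8 and 31.2 CPM, against 20.3, 23.6 and 22.0 CPM with PCBP1 hairpins. The groups did not overlap, and the change was -0.51 (SE 0.13) with an adjusted p of 0.0688. It passed with DESeq2 (adjusted p = 0.0210), in a fit of the 9 libraries of that day (0.0104) and without the filter on low counts (0.0232), and was -0.22 after removal of the GC trend. In PCBP2 knockdown Lmnb2 was at 29.9, 24.5 and 33.9 CPM, around the controls. At Day 2 it was at 5.28, 7.07 and 5.12 CPM in control, 4.23, 4.03 and 4.31 in PCBP1 knockdown and 4.64, 3.26 and 4.64 in PCBP2 knockdown. Both knockdowns lay below all controls, with changes of -0.48 (adjusted p = 0.0654) and -0.49 (adjusted p = 0.107). Both passed with DESeq2 (adjusted p = 0.0482 and 0.0417), and for PCBP2 knockdown the call also appeared without LUC-1 (-0.63, adjusted p = 0.0479).

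Lmnb1, which encodes lamin B1, stood at 163, 165 and 181 CPM in Day 0 control libraries, 159, 181 and 176 in PCBP1 knockdown and 170, 170 and 189 in PCBP2 knockdown. The ranges overlap throughout. At Day 2 it was at 41.8, 35.7 and 38.1 CPM in control, 43.2, 33.7 and 43.2 in PCBP1 knockdown and 32.3, 32.8 and 30.9 in PCBP2 knockdown. The PCBP2 libraries were the lowest of the day, and the change against control was -0.27 (SE 0.11, adjusted p = 0.159). Against PCBP1 knockdown, Lmnb1 was lower in PCBP2 knockdown by -0.32 (SE 0.11, adjusted p = 0.0455), a call lost in 9 of the other settings, such as with globin genes left out (adjusted p = 0.0567), at changes of -0.38 to -0.30.

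Hdac5 was the deacetylase gene that fell with both knockdowns at Day 2. It encodes a class IIa deacetylase that shuttles between nucleus and cytoplasm. Hdac5 stood at 154, 173 and 234 CPM in control, 118, 128 and 141 with PCBP1 hairpins and 125, 127 and 107 with PCBP2 hairpins. In CPM all knockdown libraries lay below all controls, and LUC-1 was the highest. In TPM, which is relative to all transcripts with globins included, the groups overlapped. There Hdac5 was at 50.6 to 62.2 TPM in control, 51.9 to 69.4 with PCBP1 hairpins and 49.2 to 58.9 with PCBP2 hairpins. The fall was 0.53 on the log2 scale with PCBP1 knockdown (log2 change -0.53, SE 0.13, adjusted p = 0.0100, 69.0% of control) and 0.64 with PCBP2 knockdown (-0.64, SE 0.13, adjusted p = 0.00757, 64.0% of control). Hdac5 and Hdac2 were the 2 members of 9 called with PCBP1 knockdown, beside 13.0% of all genes, and Hdac5 the 1 of 9 with PCBP2 knockdown, beside 4.67%. The erythroid marker sum of these libraries, led by the globin gene Hba-a1, was below that of the controls too, as given above.

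Without LUC-1 the Hdac5 change was -0.35 with PCBP1 knockdown (adjusted p = 0.0793) and -0.51 with PCBP2 knockdown (adjusted p = 0.0176), and without PCBP1 hairpin SH1 it was -0.46 (adjusted p = 0.0569). After removal of the GC trend neither change passed (-0.15 and -0.31), and with library totals alone the PCBP1 change did not (-0.29, adjusted p = 0.107). At Day 0, Hdac5 stood at 11.4, 13.0 and 9.14 CPM in control, 8.95, 9.46 and 8.53 in PCBP1 knockdown and 9.59, 8.52 and 10.2 in PCBP2 knockdown. Those ranges overlapped, and its changes of -0.32 and -0.25 did not pass the test. The difference between the effects on the days was not called for either knockdown (-0.22 and -0.39).

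Hdac2, a class I deacetylase gene whose product works in the Sin3 and NuRD complexes, was higher in PCBP1 knockdown at Day 2. Control libraries held 14.8, 13.3 and 7.33 CPM, against 20.2, 14.2 and 18.1 with PCBP1 hairpins and 10.7, 13.0 and 11.3 with PCBP2 hairpins. PCBP1 hairpin SH3 lay within the control range, and LUC-1 was the lowest library. The rise was 0.56 (SE 0.17, adjusted p = 0.0332). Without LUC-1 it was 0.31 (adjusted p = 0.176), and without PCBP1 hairpin SH1 or SH4 it did not pass (adjusted p = 0.196 and 0.124), while the change stayed at 0.45 and 0.54.

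Between the knockdowns at Day 2, Hdac2 was lower in PCBP2 than in PCBP1 knockdown by -0.58 (SE 0.17, adjusted p = 0.0311). Hdac2 and Lmnb1 were the 2 of 9 called there, beside 12.3% of all genes. The Hdac2 call was lost without any one of hairpins SH1 and SH4 of either knockdown, while the change stayed at -0.51 to -0.61. At Day 0, Hdac2 was at 89.5 to 103 CPM in every library of the 3 groups.

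Hdac6, a mainly cytoplasmic deacetylase with tubulin among its substrates, passed in no knockdown comparison. At Day 2 control libraries held 24.6, 32.1 and 27.2 CPM, against 21.3, 29.4 and 46.2 with PCBP1 hairpins and 31.5, 31.8 and 40.1 with PCBP2 hairpins. SH4 was the highest library of each knockdown, and the groups overlapped. The changes were 0.21 (SE 0.18, adjusted p = 0.511) and 0.30 (SE 0.18, adjusted p = 0.405). At Day 0 it was at 9.73 to 11.6 CPM in all libraries. Its first-exon LSV had the largest expected change of its gene: in the authors' deposited table for PCBP2 knockdown at Day 2, the junction chrX:7947244-7947650 was used at 74.2% in control and 40.2% in knockdown, with a probability of 0.730. That is below 0.90, so it was not called, and it is the 1 LSV added when the probability is set to 0.50. In PCBP1 knockdown the same junction was at 58.1% (probability 0.0224).

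The Salmon shares of Hdac6 at Day 2 varied widely between libraries. Hdac6-202 took 27.1%, 36.8% and 25.4% of Hdac6 TPM in the controls, 30.0%, 18.6% and 7.1% in PCBP1 knockdown and 0.0%, 0.0% and 14.6% in PCBP2 knockdown. The PCBP2 knockdown was below the controls for Hdac6-202 in each library, on estimates and with no test. By estimated reads Hdac6-202 held 40.1% in the controls.

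Xpo7 did not pass in any knockdown comparison. At Day 0 control libraries held 48.8, 55.5 and 49.4 CPM, against 47.6, 47.1 and 58.3 in PCBP1 knockdown and 49.4, 52.5 and 55.9 in PCBP2 knockdown. At Day 2 it was at 7667, 6979 and 7928 CPM in control, 8541, 6337 and 6091 in PCBP1 knockdown and 7359, 6618 and 6181 in PCBP2 knockdown. The groups overlapped on both days, and the Day 2 changes were -0.11 (95% interval -0.33 to 0.12) and -0.16 (-0.39 to 0.06).

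Across the 9 genes no LSV was called outside Ehmt2. At Day 0 in PCBP2 knockdown 0 of 224 LSVs were called, beside 0.0221% of all LSVs. At Day 2, 0 of 159 were called in PCBP1 knockdown (0.286% of all) and 0 of 155 in PCBP2 knockdown (0.118%). At Day 2 the counts of LSVs ran from 56 in Xpo7 and 38 in Hdac5 to 4 in Ehmt1, 3 in Ehmt2 and 0 in Lmnb2 in the PCBP1 table, so splicing of the low genes was hardly covered. The largest expected change in Hdac5 was a junction at chr11:102198884-102199005, used at 97.8% in control and 82.0% in PCBP1 knockdown at Day 2 (probability 0.0995 in the authors' deposited table). For Xpo7 it was a junction used at 31.9% and 13.2% (probability 0.0872 in the authors' deposited table).

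In PCBP2 knockdown at Day 0 none of the 9 genes was called (edgeR; 0 also at an unadjusted p under 0.05 and 0 by DESeq2), beside 0.0229% of all genes. The median change of the 9 genes was 0.03 there and -0.01 in PCBP1 knockdown, against 0.01 and -0.01 over all genes. At Day 2 the medians were -0.07 in PCBP1 and -0.14 in PCBP2 knockdown, against 0.02 and -0.01. No member had a called difference of its knockdown effect between the days (edgeR; 2 and 1 at an unadjusted p under 0.05, 0 and 0 by DESeq2), beside 0.400% of all genes for PCBP1 and 0% for PCBP2.

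Between Day 0 and Day 2 all 9 genes changed in every condition: Xpo7, Hdac5 and Hdac6 rose and the other 6 fell, although the Hdac6 rise and the Kmt5a fall depended on the scaling. This stands beside 82.8% of all genes called in the controls (40.4% higher, 42.4% lower), 82.0% in PCBP1 knockdown (40.3% and 41.7%) and 83.0% in PCBP2 knockdown (40.9% and 42.1%). The median change of the members was -2.11, -2.10 and -2.14 in control, PCBP1 and PCBP2 knockdown, and that of all genes -0.05, -0.04 and -0.04. With library totals alone, the median of all genes moved to -1.68 in the controls, and the calls went from 7077 higher and 7413 lower to 3554 and 11346.

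**Figure D3:**
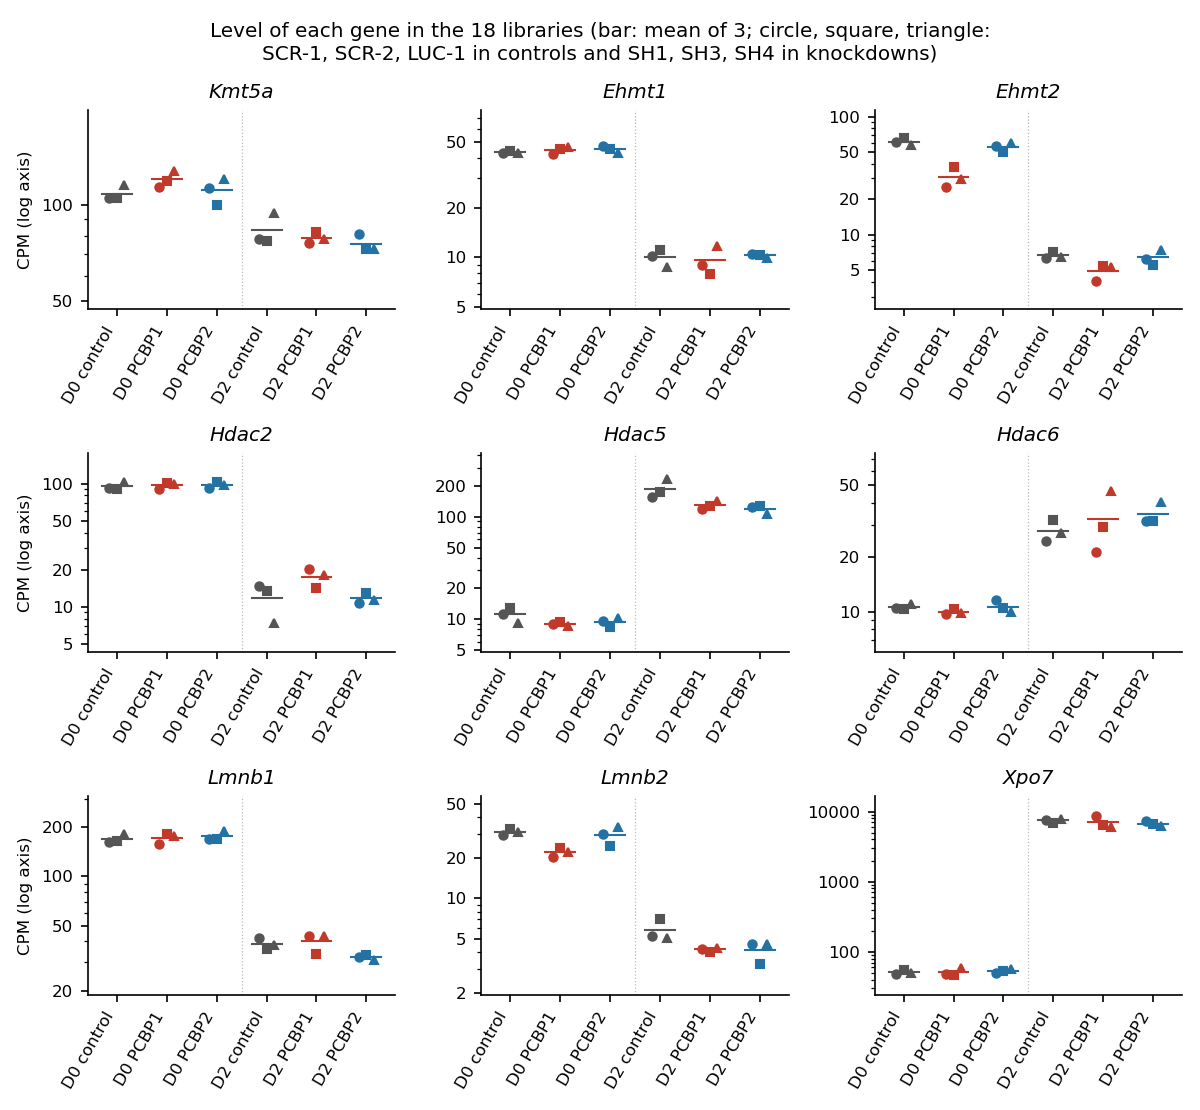
Normalised read count (CPM, log axis) of each of the 9 genes in every library, by day and group. Xpo7 goes from about 50 to between 6091 and 8541 CPM, Hdac5 and Hdac6 are higher at Day 2, and Ehmt1, Ehmt2, Hdac2, Lmnb1 and Lmnb2 are lower at Day 2 in every library.

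Xpo7 rose most, by 7.20 in control, 7.10 in PCBP1 and 7.0 in PCBP2 knockdown (SE 0.15 each). Hdac5 followed, from 9.14 to 13.0 CPM to 154 to 234 CPM in the controls, a log2 change of 4.06, 3.84 and 3.67 in the same order. Hdac6 rose by 1.40, 1.69 and 1.69, but with library totals alone its change was -0.24 (adjusted p = 0.245), 0.27 (0.190) and 0.27 (0.185). Apart from Hdac6, the direction of these rises did not depend on the scaling.

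Ehmt2 fell by 3.19 in control and by 2.64 and 3.11 in the knockdowns (log2 -3.19, -2.64 and -3.11). Hdac2 changed by -3.00, -2.47 and -3.05, Lmnb2 by -2.42, -2.39 and -2.82, Lmnb1 by -2.14, -2.10 and -2.46, and Ehmt1 by -2.11, -2.23 and -2.14. These 5 genes fell in each condition under each scaling run. With TMM scaling Kmt5a changed least, by -0.38 in control (adjusted p = 0.00101), -0.61 in PCBP1 and -0.55 in PCBP2 knockdown, and after removal of the GC trend by 0.15, -0.10 and -0.00, none of them called. With library totals alone the Kmt5a changes were -2.02, -2.04 and -1.98, all called, and Hdac6 changed least. Within the pairs, then, Ehmt1 and Ehmt2 both fell and so did both B-type lamins, while the 3 deacetylases did not share a direction.

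**Figure D4:**
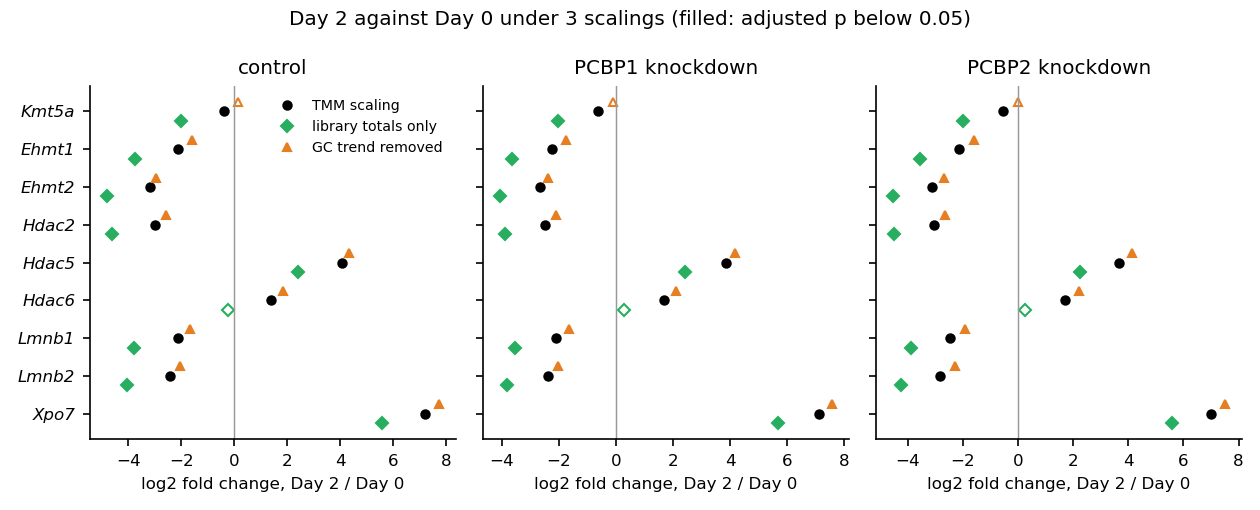
Day 2 against Day 0 for the 9 genes under 3 scalings in control, PCBP1 and PCBP2 knockdown (x axis log2 fold change; filled where the adjusted p is below 0.05). Library totals shift all genes to lower values; only Hdac6 in control (1.40 with TMM, -0.24 with totals) and Kmt5a in control (-0.38 with TMM, 0.15 with the GC trend removed) change sign.

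The Xpo7 change came with another first exon. In the authors' deposited tables the junction from a distal first exon, chr14:70707433-70766512 on the minus strand, was used at 69.3% in the Day 0 controls and 6.9% at Day 2. The junction from an inner first exon, chr14:70707433-70707951, was used at 26.5% and 92.3%, a difference of 65.8 points. The same held in PCBP1 knockdown (inner exon 33.2% and 92.9%) and in PCBP2 knockdown (22.0% and 93.8%). The coding starts, read from the GENCODE M21 transcripts, differ between the exons, with the start codon in capitals.
Xpo7 distal first exon, chr14:70766512-70766529, minus strand: ATGgcggatcatgtgcag
Xpo7 inner first exon, chr14:70707951-70707971, minus strand: ATGcgggactcagggagaaag
The distal exon gives 6 codons and the inner exon 7 codons before the same 3243 coding bases, so the annotated proteins would differ at their first residues only. Salmon's tables hold 2 of the 6 annotated Xpo7 transcripts and not Xpo7-206, which starts at the inner exon, so no transcript shares are given for Xpo7.

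**Figure D5:**
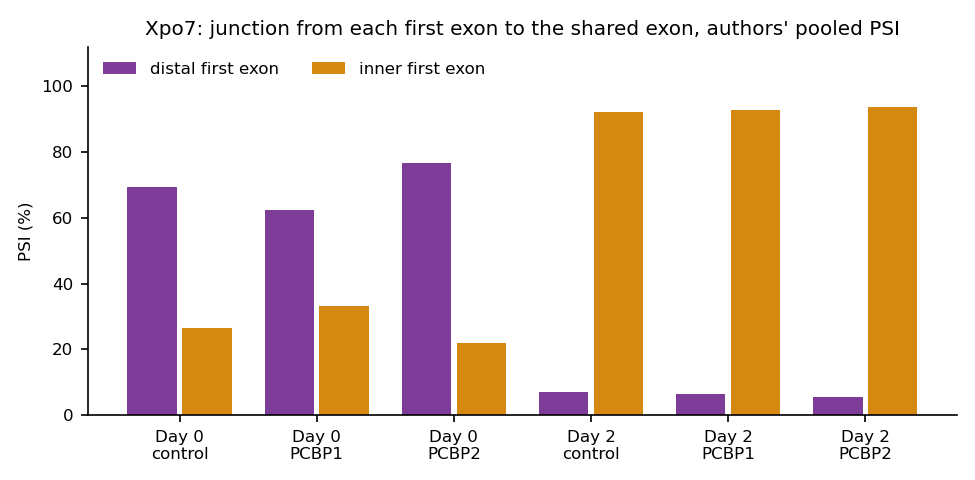
PSI (percent, the authors' pooled values) of the junctions from the distal and the inner first exon of Xpo7 to the shared exon, by day and group. The distal exon leads in each Day 0 group (62.5% to 76.7%) and the inner exon in each Day 2 group (92.3% to 93.8%).

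In the controls, 3 of 149 LSVs of the 9 genes differed by at least 20 points between the days, all in Xpo7, beside 5.17% of 82400 LSVs. The other 2 went from 96.8% to 71.9% (chr14:70691154-70692651) and from 96.7% to 73.2% (chr14:70688320-70690982). The days were never compared in one deposited table, so these are differences of pooled values with no test.

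Per length, Lmnb1 was the highest of the 9 genes in the Day 0 controls, at 149 ± 7.31 TPM (SD, n = 3), followed by Kmt5a at 124 ± 3.72, Hdac2 at 109 ± 4.19 and Ehmt2 at 43.8 ± 3.42. Ehmt1 (24.7 ± 1.84), Lmnb2 (20.7 ± 0.961), Hdac5 (9.85 ± 1.42), Hdac6 (7.29 ± 1.13) and Xpo7 (6.93 ± 0.621) came next. The neighbours Hdac5 and Hdac6, and Hdac6 and Xpo7, overlapped between libraries. With PCBP1 knockdown Ehmt2 was at 26.1 ± 4.17 TPM, level with Ehmt1 at 27.2 ± 1.84. In the Day 2 controls Xpo7 led at 255 ± 29.7 TPM, then Hdac5 at 56.9 ± 5.87, Kmt5a at 24.4 ± 1.15 and Lmnb1 at 7.77 ± 1.28. Hdac6 (4.92 ± 0.703), Hdac2 (3.70 ± 1.42), Ehmt2 (1.9 ± 0.401), Ehmt1 (1.85 ± 0.0634) and Lmnb2 (1.48 ± 0.497) overlapped with their neighbours in that order. TPM are relative to all transcripts of a library, globins included, so they are not compared between the days here. A TMM-scaled CPM is comparable between days only if the typical gene did not change, which was not tested.

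Other genes of the same processes were called in single cases at Day 0 with PCBP1 knockdown, beside 0.891% of all genes tested. Of 18 other deacetylases and partners 1 was lower, Hdac10 (-0.65, SE 0.13, adjusted p = 0.0118), and of 14 other lamina and inner membrane genes 1 was lower, Lmna, the A-type lamin gene (-0.71, SE 0.15, adjusted p = 0.0184, 48.6 against 79.8 CPM). Both calls ended when the GC trend was removed. None was called by edgeR among 14 genes of H4K20 and H3K9 methylation (2 at an unadjusted p under 0.05, 1 by DESeq2), 4 genes of HP1 proteins and H1.0, 24 nuclear transport receptors and partners, 10 condensin and topoisomerase II genes (0 by either count for each) or 18 enucleation genes (4 at an unadjusted p, 0 by DESeq2). With PCBP2 knockdown at Day 0 no gene of these 7 lists was called by edgeR or DESeq2, with at most 1 gene of a list at an unadjusted p under 0.05. Over all genes edgeR called 0.0229% there.

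At Day 2 with PCBP1 knockdown, 3 of 10 condensin and topoisomerase II genes rose: Top2b by 0.64 (adjusted p = 3.87e-04), Smc2 by 0.57 and Top2a by 0.54, which encode enzymes and a subunit that untangle and compact chromosomes. Of the methylation genes 1 rose and 3 fell. Setdb1, an H3K9 methyltransferase gene, was the 1 that rose, by 0.59 (SE 0.10, edgeR adjusted p = 2.82e-04). Prdm2 (-0.48, SE 0.09, edgeR adjusted p = 0.00136) and the H3K9 demethylase gene Kdm4b (-0.62) were among the 3 that fell. Lmna fell here too (-0.67, 739 against 1177 CPM, adjusted p = 0.00364), with Emd at -0.40 and Banf1 at 0.39. Of 24 transport genes 2 rose, Ipo8 (0.56) and Ipo5 (0.40), and 1 fell, the tRNA exportin gene Xpot (-0.58, edgeR adjusted p = 9.34e-05). Of the 18 enucleation genes Trim58 (-0.38) and Pfn1 (-0.32) fell. Of the other deacetylases and partners 2 were higher (Chd4 at 0.31, Rbbp7 at 0.29), as was 1 HP1 gene (Cbx5 at 0.52). These counts stand beside 13.0% of all genes called in this comparison. The calls of Setdb1, Xpot and Top2b were kept in each of the 14 settings and left-out libraries run. Those of Lmna, Smc2 and Prdm2 were kept in 13 of 14. They ended with the GC trend removed for Lmna, without PCBP1 hairpin SH1 for Smc2 and with library totals alone for Prdm2. The Emd call was kept in 9 and the Pfn1 call in 8.

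Of the genes named above, these lost their PCBP1 call without LUC-1: Kdm4b (-0.43, adjusted p = 0.0654), Cbx5 (0.33), Chd4 (0.26), Rbbp7 (0.24), Banf1 (0.27), Top2a (0.37) and Trim58 (-0.32). So did both transport genes that rose, Ipo8 (0.39, edgeR adjusted p = 0.139) and Ipo5 (0.25, edgeR adjusted p = 0.249). The Kdm4b call also ended with library totals, with the GC trend removed and with the 9 libraries of the day, and was kept in 10 of 14. With library totals alone the lists shift upward, for example to 9 of 10 condensin genes higher and 11 of 24 transport genes higher, with a median shift of 0.25 over all genes.

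At Day 2 with PCBP2 knockdown, the ubiquitin ligase gene Trim58, which acts in enucleation, fell by 0.80 (log2 -0.80, adjusted p = 3.81e-04, 271 against 472 CPM) in every setting run, and Cit was at -0.47 (adjusted p = 0.0163). Lmna fell again (-0.72, adjusted p = 0.00706, 717 against 1177 CPM), and 1 gene each was lower among the deacetylases (Hdac10, -0.64), the methylation genes (Kdm4b, -0.52) and the transport genes (Rcc1, -0.46). These 3 calls were kept in 7, 7 and 6 of the 14 settings and left-out libraries. Without LUC-1, Hdac10 was at -0.54 (adjusted p = 0.0992), Kdm4b at -0.38 (adjusted p = 0.130) and Rcc1 at -0.62 (adjusted p = 0.00942). Of the same 14, the Lmna call was kept in 12, ending with the GC trend removed and with the 9 libraries of the day. The Cit call was kept in 9. The list counts stand beside 4.67% of all genes called. None of the HP1 genes (0 at an unadjusted p, 0 by DESeq2) or the condensin genes (3 and 2) was called by edgeR.

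Between the days in the controls, genes of the same processes moved in both directions. Of 24 transport genes 5 rose and 19 fell, among the latter Ipo5 (-3.19), and of 18 deacetylases and partners 2 rose and 15 fell, with Hdac1 at -1.91 and Hdac3 at -1.92. Lmna rose by 3.88, from 79.8 to 1177 CPM, while both B-type lamin genes fell. Of the 14 methylation genes 6 rose and 7 fell, of the 18 enucleation genes 8 rose and 7 fell (Trim58 5.45, Wdr26 4.15, Plek2 3.57), and of 10 condensin and topoisomerase II genes 2 rose and 8 fell. Of the 4 genes of HP1 proteins and H1.0 none rose and 3 fell, and of 14 other lamina and inner membrane genes 4 rose and 6 fell. Over all genes 40.4% were higher and 42.4% lower. The medians ran from -1.69 in transport to 0.08 in enucleation. With library totals alone fewer genes were higher: 1 of the transport genes, 0 of the deacetylases, 4 of the methylation, 5 of the enucleation and 0 of the condensin genes.

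Among the libraries, after the mean of each day was subtracted, Ehmt2 varied most like Mir5125 (Pearson r = 0.95 over 18 libraries), Galk1 (0.94) and Acaa1a (0.93). Hdac2 varied most like Acsl5 (0.98), Sucla2 (0.97) and Tcp1 (0.97), and Hdac5 like Vps37b, Sbno2 and Pla2g6 (0.93 each). For Lmnb2 the nearest were Tpst2 (0.93) and Exosc5 (0.91). For Lmnb1 they were Larp7 (0.93), Kif23 (0.91) and Gm10184 (0.89), and for Hdac6 Slc25a15 (0.88), Pde8a (0.86) and Mms19 (0.84). For Xpo7 they were Riok1 (0.81), Memo1 (0.8) and Rnf139 (0.79). Kmt5a had Best1 (0.89), Pak1ip1 (0.78) and Rae1 (0.77), and Ehmt1 had Sestd1 (0.92), Tcf7 (0.84) and Pja1 (0.81). Best1, Sestd1 and Tcf7 were near the floor, at a mean log2 CPM of -1.4, -1 and -1, so their values rest on few reads. Between members, Ehmt2 and Lmnb2 were at 0.75, and Xpo7 and Hdac6 at -0.76. All these points share libraries, scaling and knockdown groups, and the values are descriptions.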

How the data were processed

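RNA-seq libraries (TruSeq, total RNA) were deposited as Salmon tables. Per the submitters' processing notes, the tools were FastQC 0.11.9, Trim Galore 1.46.0, STAR 2.5.3a, SAMtools 1.9 and Salmon 0.11.3 with GRCm38. The authors deposited estimated counts and TPM per transcript, and 4 tables of local splicing variations whose PSI fractions and probabilities pool the libraries of a condition, per the file headers; the tool behind them and their depth are not given in the sources used here. Of 111706 transcripts, 110403 matched GENCODE M21; the 1303 others held 0.275 to 0.579% of reads and were left out.

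Estimated counts were summed per gene and rounded. The edgeR filter (minimum count 10) kept 17500 genes. edgeR 4.0.16 (R 4.3.3) fitted 6 group means to 18 libraries with TMM scaling and robust quasi-likelihood (12 residual degrees of freedom, common dispersion 0.0169); the robust setting was chosen after seeing the data. Adjusted p-values are Benjamini-Hochberg over all genes tested, two-sided. The standard error is the log2 change divided by the square root of the F statistic, and the 95% interval is 1.96 standard errors either way. "Rose", "fell" and "called" mean an adjusted p under 0.05. DESeq2 1.42.0, 2 other scalings, a GC correction, no filter, the 9 libraries of a day, left-out libraries and a hairpin block were the alternatives.

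The model was tested on simulated data. Members and lists were chosen with earlier results of these data known. Named genes are the 9 members, up to 3 genes of each list by smallest p, the 3 genes most like each member, and every called splicing variation of a member or else the one with the largest expected change. A few of the genes so named are left unreported. LSVs were matched by gene ID, Kmt5a under its older name Setd8. Sequences come from the GENCODE M21 transcripts. The genome was not used here.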

Additional observations from a re-analysis of the deposited data

How the results depend on the processing

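Over the comparisons of single genes, 1454 values kept their direction and side of the threshold under the alternatives, 32 no longer passed it, 6 newly passed it, 102 that were called in neither fit differed in sign, and 2 reversed: Hdac6, Day 2 against Day 0 in control, at -0.24 with library totals only, and Kmt5a in the same comparison at 0.15 with the GC trend removed. The number of the 9 genes called in PCBP1 knockdown at Day 0 (1) was 2 without the expression filter, with the 9 libraries of that day only and with DESeq2. At Day 2 in PCBP1 knockdown (2) it was 1 with library totals only and 0 with the GC trend removed and with the 9 libraries of that day only, and 0 to 2 with a library left out (0 without LUC-1 or SH1, 1 without SH4). In PCBP2 knockdown at Day 2 (1) it was 0 with the GC trend removed and with the 9 libraries only, 2 with DESeq2, and 1 to 2 with a library left out (2 without LUC-1). Between the knockdowns at Day 2 (2) it was 1 without the filter, with globin genes left out and with the GC trend removed, 0 with the 9 libraries only, and 0 to 2 with a library left out (0 without SH1 or SH4 of either knockdown). With the replicate block it was 0 between the knockdowns at Day 0 (1 without, Ehmt2 at 0.84, adjusted p = 0.119) and 0 at Day 2 (2 without). Same-numbered libraries correlated at -0.05 to 0.07 in their deviations from group means. By that measure over all genes no pairing was seen, which does not exclude it for single genes. At a probability of 0.50 the called LSVs in PCBP2 knockdown at Day 2 were 1 instead of 0. By estimated reads the isoform shares were 1.49, 7.27 and 2.57% for Ehmt2-208 at Day 0 (control, PCBP1, PCBP2), 12.8 and 7.41% for Kmt5a-210 at Day 0 (PCBP1, PCBP2) and 40.1% for Hdac6-202 at Day 2 (control). Over all genes, the calls in PCBP1 knockdown at Day 0 were 156, against 17 with the GC trend removed, 1111 with the 9 libraries and 431 with DESeq2; in PCBP2 knockdown at Day 0 they were 4, against 6 with the 9 libraries and 13 with DESeq2. At Day 2 they were 2268 in PCBP1 knockdown, against 4087 with library totals (3459 higher and 628 lower, from 953 and 1315) and 932 with the 9 libraries, and 818 in PCBP2 knockdown, against 200 with the GC trend removed, 66 with the 9 libraries and 1558 with DESeq2 (with library totals 974 higher and 219 lower, from 167 and 651). Between the knockdowns they were 45 at Day 0, against 22, 312 and 161 (GC, 9 libraries, DESeq2), and 2158 at Day 2, against 519 with the 9 libraries. For the change of effect between days they were 70 for PCBP1, against 360 with library totals, 123 with the GC trend removed and 598 with DESeq2, and 0 for PCBP2, against 90 with DESeq2. The cause was not tested in any of these. Depth limits Ehmt2 and Lmnb2 at Day 2 most.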
